A study of Homo sapiens with 8 samples.

Results

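A set of 46 Wnt pathway genes was examined in SK-N-MC, a cell line derived from Ewing sarcoma (EwS). The genes were chosen by symbol from the 60332 genes of the expression table and cover 11 roles, from ligands to transcription factors and feedback inhibitors of the pathway. Of the 46, 39 were among the 15372 genes that reached 1 FPKM (a read level per kilobase of transcript and per library size) in at least 2 of the 8 libraries and were tested. The RNA sequencing libraries form 4 groups of 2: control normoxia, control hypoxia, eKD1 and eKD2, with both eKD groups kept in hypoxia. Hypoxia was 16 h in 1% oxygen. All cells had been infected at a multiplicity of 10 with a lentivirus for dCas9-KRAB, a cleavage-dead Cas9 joined to a repressor domain, selected with puromycin at 1 µg/ml and used within 5 passages. The control cells received the empty dCas9-KRAB vector, while eKD1 and eKD2 each carried 1 guide directed beside the GGAA microsatellite enhancer that drives LOXHD1. Each knockdown therefore rests on 1 guide in 1 cell line, and normoxic eKD cells were not analysed here.

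Wnt ligands are secreted lipid-modified proteins that bind frizzled receptors on the cell surface. In the canonical branch, LRP5 and LRP6 act as co-receptors, the destruction complex of AXIN, APC and GSK3B is inhibited, and β-catenin accumulates and binds TCF/LEF factors on target genes. In the β-catenin-independent branch, ligands such as WNT5A signal through frizzleds with ROR1, ROR2 or RYK and act on cell polarity and movement. Both branches pass through the Dishevelled proteins, and both are restrained by secreted antagonists and by feedback inhibitors that the pathway itself induces.

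The labels were checked on 2 genes. LOXHD1 had 155.8 and 168.5 FPKM in the normoxia controls and 93.0 and 91.1 FPKM in the hypoxia controls, and its mean in eKD1 and eKD2 was 17.6% and 12.7% of that in control hypoxia. CA9, a standard hypoxia-induced carbonic anhydrase, was at 0 in the 2 normoxia libraries but stood between 56.9 and 82.8 FPKM in the 6 hypoxia libraries. All 8 Ewing sarcoma markers passed the 1 FPKM filter. Of 11 markers of other cell types found in the table, 7 passed it, among them the fibroblast genes DCN and LUM. The summed level of the blood markers, most of it PTPRC, was 23.6 to 24.95 FPKM in control normoxia, 5.51 to 5.78 in control hypoxia, 11.7 in both eKD1 libraries and 15.1 to 15.2 in eKD2, with CD3E listed at 0 throughout. The part of these markers in the Wnt gene results was not tested. Relative sequencing depth ranged from 55.7% to 100% of the deepest library, and duplicates correlated at r = 0.954 to 0.963 across genes, which are not independent replicates.

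Most of the 46 genes were expressed in SK-N-MC cells. In all, 34 reached 1 FPKM in every library, 6 did so in 1 to 7 libraries, and the other 6 (WNT5B, WNT11, FZD10, SFRP1, APC2 and NKD1) stayed under 1 FPKM in all 8. Between 35 and 38 of the genes reached 1 FPKM in any library. The untested genes were those 6 and LGR5, a receptor for R-spondins, which passed 1 FPKM in 1 library of control normoxia (2.55 FPKM). No gene of the set passed the filter through 1 group alone.

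Among the 5 ligands, WNT5A had the highest level, with values of 7.09 to 16.5 FPKM. WNT10B (3.35 to 5.33 FPKM) and WNT3 (1.18 to 1.98 FPKM), both ligands of the β-catenin branch, followed without overlap in that order. WNT11 reached at most 0.932 FPKM and WNT5B at most 0.325 FPKM. WNT5A was not the highest ligand of the cells, because WNT10A, outside the set, stood above it at 18.4 to 24.9 FPKM. WNT6, also outside the set, ranged from 2.93 to 5.87 FPKM. Genes needed to make and release the ligands were present in all libraries. WLS, the transmembrane carrier that brings Wnt proteins to the surface, was the most abundant gene of the set at 211 to 278 FPKM, and PORCN, the enzyme that acylates them, stood at 7.97 to 12.7 FPKM.

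Of the 10 frizzled receptors, 8 reached 1 FPKM in all libraries. FZD3 (23.6 to 42.1 FPKM), FZD2 (21.8 to 32.3) and FZD1 (17.4 to 24.5) were the most abundant, and their ranges overlapped. FZD8, FZD7, FZD6 and FZD5 lay between 4.83 and 13.2 FPKM, and FZD4 at 2.01 to 4.04 FPKM. FZD9 crossed 1 FPKM in 3 of the 8 libraries, and FZD10 stayed at or under 0.0475 FPKM. Among the co-receptors, the ligand-binding RYK was highest (76.1 to 118 FPKM), followed by LRP5 (28.4 to 45.0), LRP6 (11.9 to 18.9), ROR1 (2.53 to 8.70) and ROR2 (0.152 to 3.22). RYK, LRP5, LRP6 and ROR1 did not overlap one another over the 8 libraries, whereas ROR1 and ROR2 did. LGR4, the R-spondin receptor expressed here, ranged from 11.3 to 20.6 FPKM.

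Genes downstream of the receptors covered a wide range of levels. DVL3 (58.1 to 76.0 FPKM), DVL1 (37.0 to 49.4) and DVL2 (24.7 to 38.2), which relay the signal from frizzleds, were all well above the filter. CTNNB1, which encodes β-catenin, stood at 50.6 to 61.8 FPKM, and its narrow range overlapped that of DVL3. In the destruction complex, GSK3B ranged from 15.1 to 39.6 FPKM, AXIN1 from 14.3 to 20.2, APC from 7.37 to 13.1 and AXIN2, itself a classic β-catenin target, from 3.73 to 8.23. LEF1 was the most abundant TCF/LEF gene at 29.6 to 51.2 FPKM, above TCF7L2 (7.21 to 24.0), TCF7L1 (7.58 to 12.5) and TCF7 (1.90 to 4.17). TLE3, a corepressor that TCF/LEF factors recruit, reached 39.1 to 57.8 FPKM, against 1.42 to 5.81 FPKM for its relative TLE1.

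The secreted antagonists and feedback inhibitors of the set reached at most 11.6 FPKM in any library. SFRP2, a secreted frizzled-like decoy, ranged from 7.45 to 11.6 FPKM, and SFRP1 from 0.417 to 0.777. The Dickkopf family members DKK2 and DKK3 lay at 0.542 to 2.43 and 0.905 to 2.70 FPKM. ZNRF3, a ubiquitin ligase that removes frizzleds from the surface, stood at 4.81 to 6.62 FPKM. Its relative RNF43 varied between duplicates, with 3.67 and 0.450 FPKM in the eKD1 libraries. TCF7L2 was also uneven, with 24.0 and 7.21 FPKM in the duplicates of control normoxia.

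**Figure D1:**
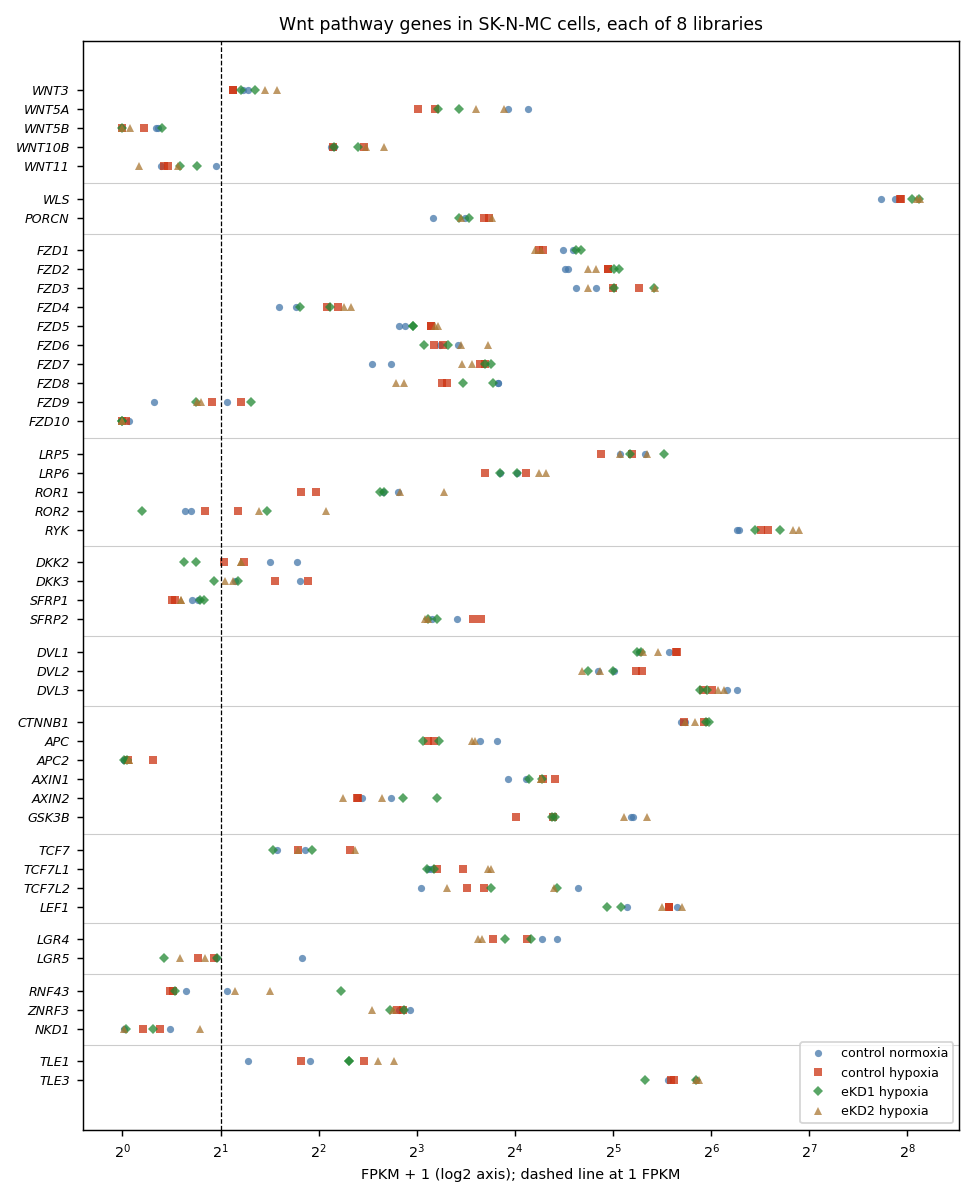
Each of the 46 Wnt pathway genes is plotted by its FPKM + 1 on a log2 axis, with a point for each of the 8 libraries and colours and shapes for the 4 groups. WLS lies far to the right at 211 to 278 FPKM, and WNT5B, WNT11, FZD10, SFRP1, APC2 and NKD1 lie left of the dashed line at 1 FPKM in every library.

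The first comparison asked how control cells responded to hypoxia. Of the 39 genes tested, 8 were called at an adjusted p under 0.05 (limma, Benjamini-Hochberg over all 15372 genes), which is 20.5%, against 32.2% of all tested genes. The 3 that rose were FZD2, FZD7 and RYK (16.2% of all genes rose), and the 5 that fell were WNT5A, FZD8, ROR1, APC and GSK3B (16% of all genes fell). An unadjusted p under 0.05 was found for 13 of the 39, against 45.9% of all genes. The 39 changes had a median of 0.13 on the log2 scale, against 0.013 over all genes tested, with 21 above and 18 below 0. In 26 of the 39 (66.7%) the 2 groups did not overlap, against 70.4% of all genes. The share of calls among the Wnt genes was thus under that of the table as a whole, a difference that was not tested. In these bulk libraries, fewer cells with a transcript and less of it per cell cannot be told apart.

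WNT5A, the prototype ligand of the β-catenin-independent branch, was at 16.5 and 14.3 FPKM in normoxia and at 8.10 and 7.09 FPKM in hypoxia. Both hypoxia libraries lay below both normoxia libraries, at 49.3% of the normoxia mean (log2 change -0.93, SE 0.139, adjusted p = 0.0195). On GRCh37 the gene spans bases 55499743 to 55524567 of the chromosome 3 minus strand. The other tested ligands, WNT3 and WNT10B, were not called. WNT3 went from 1.43 and 1.34 FPKM to 1.19 and 1.18, and the WNT10B groups overlapped.

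Among the frizzleds, FZD7 was at 5.65 and 4.83 FPKM in normoxia and at 11.5 and 12.0 in hypoxia, a 2.24-fold rise (log2 change 1.03, SE 0.134, adjusted p = 0.0151). FZD2 went from 22.3 and 21.8 FPKM to 29.8 and 30.0 (1.36-fold, log2 change 0.42, SE 0.0758, adjusted p = 0.0268). FZD8 moved the other way, from 13.2 FPKM in both normoxia libraries to 8.57 and 8.92, which is 66.1% of the normoxia mean (log2 change -0.55, SE 0.104, adjusted p = 0.0306). In each of these 3 receptor genes the duplicates lay close together and the groups were apart. The 6 other frizzleds tested were not called. FZD7 spans bases 202898578 to 202903164 of chromosome 2 and FZD2 bases 42634852 to 42638630 of chromosome 17, both on the plus strand, and FZD8 bases 35927175 to 35931224 of the chromosome 10 minus strand.

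The receptor tyrosine kinase-like genes of the WNT5A branch split. ROR1 was at 5.29 and 5.98 FPKM in normoxia and at 2.53 and 2.91 in hypoxia, 48.2% of the normoxia mean (log2 change -0.84, SE 0.154, adjusted p = 0.0288). RYK was at 76.6 and 76.1 FPKM in normoxia and at 94.9 and 89.8 in hypoxia, 1.21-fold higher (log2 change 0.27, SE 0.0589, adjusted p = 0.0400). The groups did not overlap for either gene. ROR2, with 0.557 and 0.622 FPKM in normoxia and 0.794 and 1.26 FPKM in hypoxia, was not called, and neither were LRP5 and LRP6. ROR1 spans bases 64239688 to 64647181 of the chromosome 1 plus strand and RYK bases 133784147 to 133969701 of the chromosome 3 minus strand.

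Both called genes of the destruction complex fell. GSK3B, the kinase that marks β-catenin for degradation, was at 35.5 and 35.8 FPKM in normoxia and at 15.1 and 20.0 in hypoxia, 49.2% of the normoxia mean (log2 change -0.995, SE 0.156, adjusted p = 0.0212). APC, the scaffold of the complex, was at 13.1 and 11.5 FPKM in normoxia and at 7.65 and 8.04 in hypoxia, 63.8% of the normoxia mean (log2 change -0.59, SE 0.123, adjusted p = 0.0374). AXIN1, AXIN2 and CTNNB1 were not called, and AXIN1 stood higher in both hypoxia libraries (18.6 and 20.2 FPKM) than in both normoxia libraries (16.3 and 14.3 FPKM). GSK3B spans bases 119540168 to 119813841 of the chromosome 3 minus strand and APC bases 112043215 to 112181936 of the chromosome 5 plus strand. Exons of GSK3B overlap those of an antisense gene, AC092910.3, whose level was 2.03 to 4.35 FPKM. The reads were not strand-specific, so reads of such a pair cannot be told apart.

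How firmly the 8 calls stood differed between genes. With any 1 of the 4 libraries omitted, the 3 remaining libraries gave 0 calls among the Wnt genes and 0 among all 15372 genes, although 7 to 14 of the 39 had an unadjusted limma p under 0.05. In a fit that also drew its spread from the eKD groups, WNT5A, FZD2, FZD7 and GSK3B stayed called with each library omitted in turn, with adjusted p of at most 0.0388, 0.0422, 0.0143 and 0.0209. FZD8 and RYK were called in none of these fits, with adjusted p of 0.0749 to 0.0949 and 0.128 to 0.225. ROR1 lost its call without control normoxia replicate 2 (0.0708), control hypoxia replicate 1 (0.0794) or control hypoxia replicate 2 (0.0511), and APC without control normoxia replicate 1 (0.0552) or control hypoxia replicate 1 (0.0622). When the libraries were set to equal FPKM totals, the median of all genes moved from 0.013 to -0.19, higher genes went from 50.3% to 28.4% of all calls, and the rises of RYK (0.03, adjusted p = 0.694) and FZD2 (0.19, adjusted p = 0.142) were no longer called. The falls of DVL3, FZD1 and LGR4 were called instead, which made 9 calls, 1 higher and 8 lower.

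**Figure D2:**
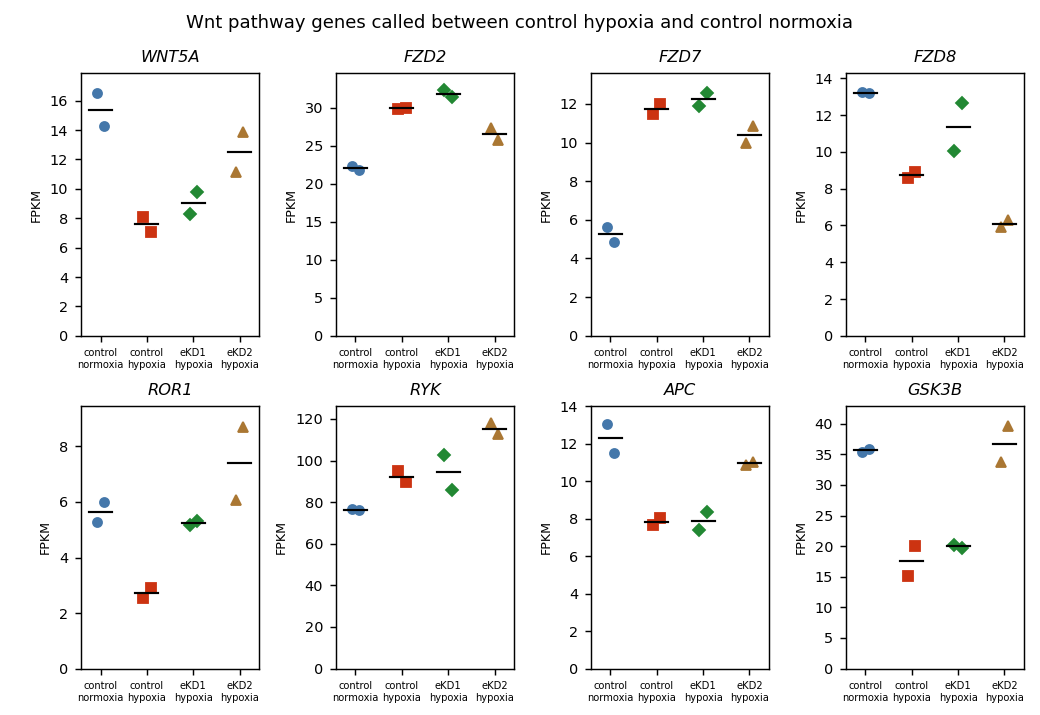
FPKM of the 8 Wnt pathway genes called between control hypoxia and control normoxia is shown in each of the 8 libraries, with a bar at the mean of each group of 2. The hypoxia squares lie above the normoxia circles for FZD2, FZD7 and RYK and below them for the other 5 genes, and the eKD2 triangles of GSK3B lie at 33.7 and 39.6 FPKM beside normoxia values of 35.5 and 35.8 FPKM.

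Promoters of the called genes are shown because HIF transcription factors, which respond to hypoxia, bind DNA at the core letters ACGTG or GCGTG of hypoxia response elements. RefSeq promoters (GRCh38.p14, 250 bases before to 50 bases after the gene start) were matched for 31 of the 46 genes. Both strands were searched, and a CACGTG hexamer counts on each strand. Either core was found in 48.4% of 27305 promoters and in 20 of the 31, with ACGTG in 5 and GCGTG in 17. The 6 matched promoters of called genes each held GCGTG, found in 36.3% of all promoters, and lacked ACGTG, found in 21.6%. Of the 29 tested genes with a matched promoter, called or not, 17 held GCGTG. Whether called genes differed from the rest in this was not tested. The TCF/LEF core CTTTGA, in 13.1% of all promoters, was not in any of the 31 windows. Below are the promoters of WNT5A (chr3:55487257-55487556, minus strand), ROR1 (chr1:63773767-63774066, plus strand), GSK3B (chr3:120094398-120094697, minus strand) and RYK (chr3:134250810-134251109, minus strand), each 5′ to 3′ in the direction of its gene with the core in capitals. WNT5A, ROR1 and GSK3B had the largest falls with a matched promoter, and RYK was the matched gene that rose.
WNT5A: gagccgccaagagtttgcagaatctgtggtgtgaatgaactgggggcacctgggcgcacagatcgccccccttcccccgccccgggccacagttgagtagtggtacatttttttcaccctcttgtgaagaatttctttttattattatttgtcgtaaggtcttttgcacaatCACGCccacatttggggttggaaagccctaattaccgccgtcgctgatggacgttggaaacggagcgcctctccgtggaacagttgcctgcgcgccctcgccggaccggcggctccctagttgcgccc
ROR1: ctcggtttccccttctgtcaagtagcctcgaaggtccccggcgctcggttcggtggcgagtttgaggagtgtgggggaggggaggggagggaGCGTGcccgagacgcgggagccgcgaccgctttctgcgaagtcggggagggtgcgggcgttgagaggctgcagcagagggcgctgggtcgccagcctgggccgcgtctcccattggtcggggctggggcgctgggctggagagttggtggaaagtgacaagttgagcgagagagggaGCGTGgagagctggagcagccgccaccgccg
GSK3B: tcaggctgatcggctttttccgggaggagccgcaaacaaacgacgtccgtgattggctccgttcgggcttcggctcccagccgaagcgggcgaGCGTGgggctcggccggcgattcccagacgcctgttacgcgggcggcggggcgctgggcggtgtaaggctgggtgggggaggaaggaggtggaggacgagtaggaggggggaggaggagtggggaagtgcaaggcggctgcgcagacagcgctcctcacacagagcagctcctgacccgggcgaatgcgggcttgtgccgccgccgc
RYK: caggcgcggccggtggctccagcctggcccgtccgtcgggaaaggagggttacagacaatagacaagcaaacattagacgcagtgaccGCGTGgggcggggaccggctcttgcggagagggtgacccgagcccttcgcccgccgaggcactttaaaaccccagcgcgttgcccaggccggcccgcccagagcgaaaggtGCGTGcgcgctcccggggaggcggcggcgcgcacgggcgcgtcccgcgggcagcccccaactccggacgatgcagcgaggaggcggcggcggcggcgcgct
The core of WNT5A begins 78 bases before the start and reads CACGC because it lies on the opposite strand. In GSK3B the core begins 157 bases before the start. ROR1 has cores 158 bases before and 19 bases after its start, and RYK has cores 162 and 51 bases before. The core letters were thus present both in genes that fell and in RYK, the matched gene that rose. RYK was not called with equal FPKM totals, and FZD2 and FZD7, which also rose, had no matched promoter. In FZD8 and APC, not printed, cores began 97 and 9 bases before the start. A match of 5 letters is a description of the sequence and not evidence of binding.

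The 31 tested genes that were not called in hypoxia included 18 in which the groups did not overlap, as was so for 56.3% of all uncalled genes. WLS (233 and 211 FPKM in normoxia, 242 and 243 in hypoxia) and PORCN (10.2 and 7.97, then 12.3 and 11.8 FPKM) both stood higher in hypoxia. The log2 change of WLS was 0.13. Equal FPKM totals moved the median of all genes from 0.013 to -0.19, so the direction of so small a rise depends on scaling. Among the Dishevelled genes, DVL1 and DVL2 were higher in both hypoxia libraries and DVL3 lower, with 63.4 and 59.3 FPKM against 70.8 and 76.0. FZD4, FZD5 and FZD3 were also higher without overlap, and FZD1 lower. LEF1, TCF7 and TCF7L2 overlapped between the groups, while TCF7L1 was higher in hypoxia (8.21 and 10.1 FPKM) than in normoxia (7.68 and 7.85 FPKM). None of the TCF/LEF, LGR, feedback inhibitor or corepressor genes of the set passed the test.

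Other genes of the pathway were taken from a list of 99 symbols outside the 46. Of these, 97 were in the table, 58 were tested and 14 were listed at 0 in every library. In hypoxia, 16 of the 58 (27.6%) were called, 10 higher and 6 lower. Over all tested genes, 32.2% were called, 16.2% higher and 16% lower. The share here was below that of the table, and the difference was not tested. The 4 with the largest changes all rose. KREMEN2, a Dickkopf receptor, went from 0.575 and 0.786 FPKM to 4.32 and 4.55 (log2 change 1.70, SE 0.163, adjusted p = 0.0098). Exons of KREMEN2 overlap those of PKMYT1 on the opposite strand, and reads of this pair cannot be told apart. NKD2, a Dishevelled-binding antagonist, went from 7.89 and 7.16 FPKM to 21.2 and 23.7 (log2 change 1.46, SE 0.119, adjusted p = 0.0084).

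DACT3, another Dishevelled partner, went from 1.42 and 1.505 FPKM to 4.17 and 4.59 (log2 change 1.13, SE 0.1498, adjusted p = 0.0158). CTNNBIP1, which blocks the binding of β-catenin to TCF factors, went from 13.4 and 14.6 FPKM to 31.6 and 27.8 (log2 change 1.03, SE 0.112, adjusted p = 0.0115). All 4 genes kept the hypoxia libraries above the normoxia libraries with no overlap. Their rises also stayed called with equal FPKM totals, at adjusted p of 0.00929 for KREMEN2, 0.00864 for NKD2, 0.0191 for DACT3 and 0.0126 for CTNNBIP1. With any 1 library omitted, a separate fit leaves 1 group with a lone sample and cannot decide about these 4 genes. In the fits with a shared spread all 4 stayed called, with adjusted p of at most 0.0143 for KREMEN2, 0.00435 for NKD2, 0.0228 for DACT3 and 0.00764 for CTNNBIP1.

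The second comparison set eKD1 against control cells, both in hypoxia. None of the 39 genes was called, where limma called 0.0651% of all tested genes, and 9 of the 39 had an unadjusted p under 0.05, against 21.7% of all genes. The median change was 0.0026 on the log2 scale, against 0.0024 over all genes tested, and the groups did not overlap in 21 of 39 (53.8%), against 53.6% of all genes. The 5 genes with the smallest p are given with their values, since too few were called to describe. The control hypoxia libraries are shared by the hypoxia, eKD1 and eKD2 comparisons, so a control value that is high or low by chance enters all of them.

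LEF1, a transcription factor at the end of the pathway, measured 46.5 and 46.6 FPKM in the hypoxic controls and 32.8 and 29.6 in eKD1 (log2 difference -0.57, SE 0.0823, adjusted p = 0.114). Its exons overlap those of the antisense gene LEF1-AS1, which was at 0.681 to 2.31 FPKM. DVL1 was at 49.1 and 49.4 FPKM in the control and at 37.0 and 38.1 in eKD1 (log2 difference -0.38, SE 0.0633, adjusted p = 0.120). Both genes were lower in both eKD1 libraries than in the hypoxic controls, while the normoxic controls were spread over 49.2 and 34.2 FPKM for LEF1 and 37.5 and 46.4 FPKM for DVL1. ROR1 was at 2.53 and 2.91 FPKM in the control and at 5.18 and 5.33 in eKD1 (log2 difference 0.75, SE 0.146, adjusted p = 0.130). FZD1 was at 18.5 and 18.0 FPKM in the control and at 23.6 and 24.5 in eKD1 (log2 difference 0.38, SE 0.0833, adjusted p = 0.143). SFRP2 was at 10.9 and 11.6 FPKM in the control and at 8.24 and 7.65 in eKD1 (log2 difference -0.45, SE 0.117, adjusted p = 0.165). All 5 genes had groups that did not overlap, and none of the differences passed the test.

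The third comparison set eKD2 against control cells in hypoxia. Again none of the 39 genes was called, where limma called 9.61% of all tested genes, and 14 of the 39 had an unadjusted p under 0.05, against 32.8% of all genes. The median was 0.07, against 0.05 over all genes, and the groups did not overlap in 29 of 39 (74.4%), against 62.1% of all genes. Higher genes made up 60.3% of all calls, 47.4% after median-of-ratios rescaling and 77.5% with equal FPKM totals, which moved the median of all genes to 0.14. The smallest adjusted p-values among the Wnt genes were close to the threshold. GSK3B was at 15.1 and 20.0 FPKM in the control and at 33.7 and 39.6 in eKD2 (2.09-fold, log2 difference 1.03, SE 0.176, adjusted p = 0.0511). ROR1 was at 2.53 and 2.91 FPKM in the control and at 6.08 and 8.70 in eKD2 (2.72-fold, log2 difference 1.16, SE 0.213, adjusted p = 0.0558). RYK was at 94.9 and 89.8 FPKM in the control and at 118 and 113 in eKD2 (log2 difference 0.32, SE 0.0594, adjusted p = 0.0568). These 3 genes were higher in both eKD2 libraries.

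In the same comparison DVL2 was at 36.7 and 38.2 FPKM in the control and at 28.3 and 24.7 in eKD2 (log2 difference -0.48, SE 0.0967, adjusted p = 0.0628). SFRP2 was at 10.9 and 11.6 FPKM in the control and at 7.63 and 7.45 in eKD2 (log2 difference -0.52, SE 0.107, adjusted p = 0.0655). Both were lower in both eKD2 libraries. The count of 0 depended on the fit. With the spread drawn from all 8 libraries, DVL2, GSK3B, ROR1, SFRP2 and WNT5A were called, 5 of 39 where the same fit called 16.9% of all genes. With protein-coding genes alone in the test, chosen after the data were seen, 6 were called, the same 5 and RYK, where 20.1% of the protein-coding genes tested were. With 1 library omitted, 1 group keeps a lone sample, so only the size of the log2 difference is given. It was 0.84 to 1.22 for GSK3B, 0.93 to 1.38 for ROR1 and 0.28 to 0.36 for RYK. For DVL2 it was -0.58 to -0.39 and for SFRP2 -0.56 to -0.48.

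**Figure D3:**
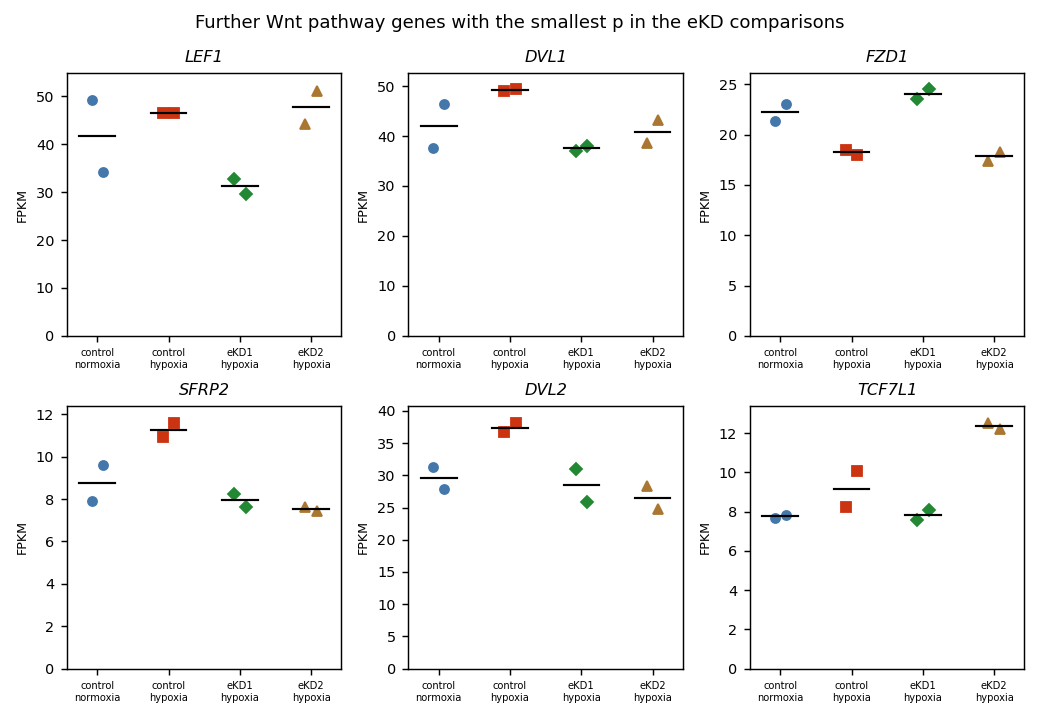
FPKM in each of the 8 libraries is shown for the 6 further genes with the smallest p in the eKD comparisons, with a bar at each group mean. LEF1 is low in eKD1 (32.8 and 29.6 FPKM) and not in eKD2 (44.3 and 51.2 FPKM), and SFRP2 is below control hypoxia in all 4 eKD libraries; no eKD difference of these genes passed the test.

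The 8 genes called in hypoxia were set side by side across the groups. They were chosen on the same control hypoxia libraries, so their distance from these is a description. In eKD2, all 8 lay apart from control hypoxia, against 62.1% of all genes, and in eKD1, 4 did (WNT5A, FZD2, FZD8 and ROR1), against 53.6%. The direction differed between genes. FZD8 (5.92 and 6.29 FPKM) and RYK (118 and 113) in eKD2 lay farther from normoxia than control hypoxia did. So did FZD2 in eKD1 (32.3 and 31.3 FPKM). The rest of those apart lay on the normoxia side of control hypoxia. WNT5A, with 8.10 and 7.09 FPKM in control hypoxia, was at 8.32 and 9.79 in eKD1 and 11.2 and 13.8 in eKD2, against 16.5 and 14.3 in normoxia. APC was at 7.37 and 8.38 FPKM in eKD1, overlapping control hypoxia, and at 10.9 and 11.0 in eKD2. FZD7 stayed high, at 11.9 and 12.6 FPKM in eKD1 and 9.98 and 10.9 in eKD2, above both normoxia libraries. GSK3B in eKD1 (20.2 and 19.8 FPKM) overlapped control hypoxia.

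Of the 39 genes, 4 lay on opposite sides of control hypoxia in eKD1 and eKD2 without overlap (FZD2, FZD5, FZD8 and TCF7L1), as did 7.5% of all tested genes. On the other hand, 10 lay on the same side of control hypoxia in both knockdowns without overlap (WNT3, WNT5A, WLS, ROR1, DKK3, SFRP2, DVL1, DVL2, AXIN1 and RNF43), a pattern seen in 31.4% of all tested genes, with shared control libraries. WLS had 242 and 243 FPKM in control hypoxia, 277 and 263 in eKD1 and 278 and 274 in eKD2. DKK3 had 2.70 and 1.95 FPKM in control hypoxia, 1.27 and 0.905 in eKD1 and 1.07 and 1.19 in eKD2. Neither difference of these 2 genes was called.

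The last comparison set eKD2 directly against eKD1, which are different guides to the same enhancer and use no shared control. None of the 39 genes was called, where limma called 0.403% of all tested genes, and 9 of the 39 had an unadjusted p under 0.05, against 23.6% of all genes. The median difference was 0.13 on the log2 scale, against 0.05 over all genes, and the groups did not overlap in 26 of 39 (66.7%), against 55.2% of all genes. GSK3B had 20.2 and 19.8 FPKM in eKD1 and 33.7 and 39.6 in eKD2 (log2 difference 0.84, SE 0.112, adjusted p = 0.0830). LEF1 had 32.8 and 29.6 FPKM in eKD1 and 44.3 and 51.2 in eKD2 (log2 difference 0.60, SE 0.112, adjusted p = 0.106). TCF7L1, a TCF factor known mainly as a repressor, had 7.58 and 8.06 FPKM in eKD1 and 12.5 and 12.2 in eKD2 (log2 difference 0.60, SE 0.113, adjusted p = 0.106). In all 3 genes eKD2 was the higher group.

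Receptor genes among the 5 smallest p-values went the other way. FZD8 had 10.1 and 12.7 FPKM in eKD1 and 5.92 and 6.29 in eKD2 (log2 difference -0.79, SE 0.162, adjusted p = 0.114). FZD1 had 23.6 and 24.5 FPKM in eKD1 and 17.4 and 18.3 in eKD2 (log2 difference -0.41, SE 0.0881, adjusted p = 0.120). In both genes eKD2 lay below eKD1 without overlap. With the spread drawn from all 8 libraries, FZD1, FZD8, GSK3B and TCF7L1 were called, where the same fit called 9.05% of all genes. With protein-coding genes alone GSK3B was called, where 4.48% of the protein-coding genes tested were. With 1 library omitted, 1 group keeps a lone sample, so only the size of the log2 difference is given. It was 0.72 to 0.95 for GSK3B, 0.50 to 0.70 for LEF1 and 0.56 to 0.64 for TCF7L1. For FZD8 it was -0.95 to -0.64 and for FZD1 -0.44 to -0.38.

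**Figure D4:**
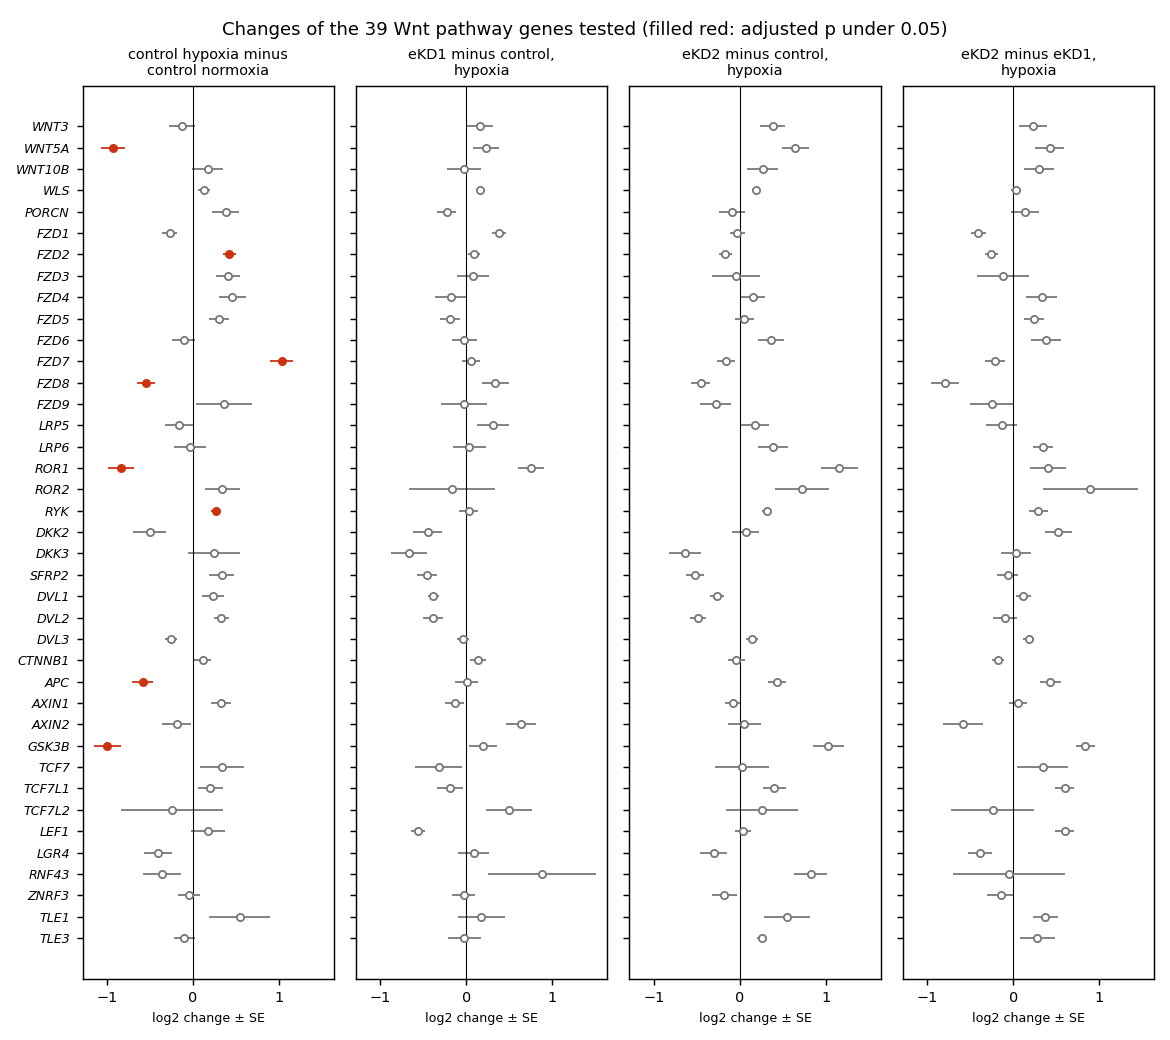
Log2 changes on the log2(FPKM + 1) scale are shown for the 39 Wnt pathway genes tested, in 1 panel per comparison, with bars of 1 SE and filled red points for genes called. Filled points appear in the hypoxia panel alone, where 3 lie above 0 and 5 below; the eKD2 panel has its farthest points at ROR1 (1.16) and GSK3B (1.03), neither called.

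Of the 58 other pathway genes tested, limma called 0 in eKD1, against 0.0651% of all genes. There 11 had an unadjusted p under 0.05, against 21.7% of all genes. In eKD2 it called 5 (8.62%, against 9.61% of all genes), 4 higher and 1 lower. In eKD2 against eKD1, 0 were called, against 0.403% of all genes. An unadjusted p under 0.05 was found for 14 there, against 23.6% of all genes. TNKS, a tankyrase that destabilizes AXIN, measured 29.5 and 31.1 FPKM in the hypoxic controls and 56.2 and 54.3 in eKD2 (log2 change 0.85, SE 0.0684, adjusted p = 0.0273). MYC, a known β-catenin target in other tissues, measured 152 and 149 FPKM in the hypoxic controls and 275 and 248 in eKD2 (log2 change 0.79, SE 0.0675, adjusted p = 0.0280). APCDD1, a membrane inhibitor of Wnt signalling and also a β-catenin target, measured 421 and 408 FPKM in the hypoxic controls and 688 and 673 in eKD2 (log2 change 0.71, SE 0.0383, adjusted p = 0.0268). All 3 rose with no overlap between groups. ATP6AP2, an adaptor between LRP6 and the proton pump, fell from 186 and 173 FPKM to 139 and 136 (log2 change -0.38, SE 0.0574, adjusted p = 0.0428).

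MYC and APCDD1 were followed across all groups, a choice made after their values were seen. In normoxia MYC was at 209 and 235 FPKM and APCDD1 at 714 and 700.2 FPKM, and both fell in control hypoxia (log2 change -0.56, adjusted p = 0.0160 for MYC and -0.77, adjusted p = 0.00665 for APCDD1). In eKD1, MYC was at 230 and 241 FPKM and APCDD1 at 775 and 754 FPKM. The eKD1 differences from control hypoxia (0.64 for MYC and 0.88 for APCDD1 on the log2 scale) had adjusted p of 0.102 and 0.0530. With the spread drawn from all 8 libraries these were 0.0172 and 6.6e-04. Without a variance trend, limma called 0.182% of all genes in eKD2. All 5 calls in eKD2 were lost when the variance trend was left out. A separate fit with 1 library omitted leaves 1 group with a lone sample and cannot decide about these 5. Of 17 alternatives, the call was lost in 10 for TNKS, 12 for ATP6AP2, 8 for CCND1, 7 for MYC and 6 for APCDD1. These counts include 4 separate fits with a library omitted for each gene.

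**Figure D5:**
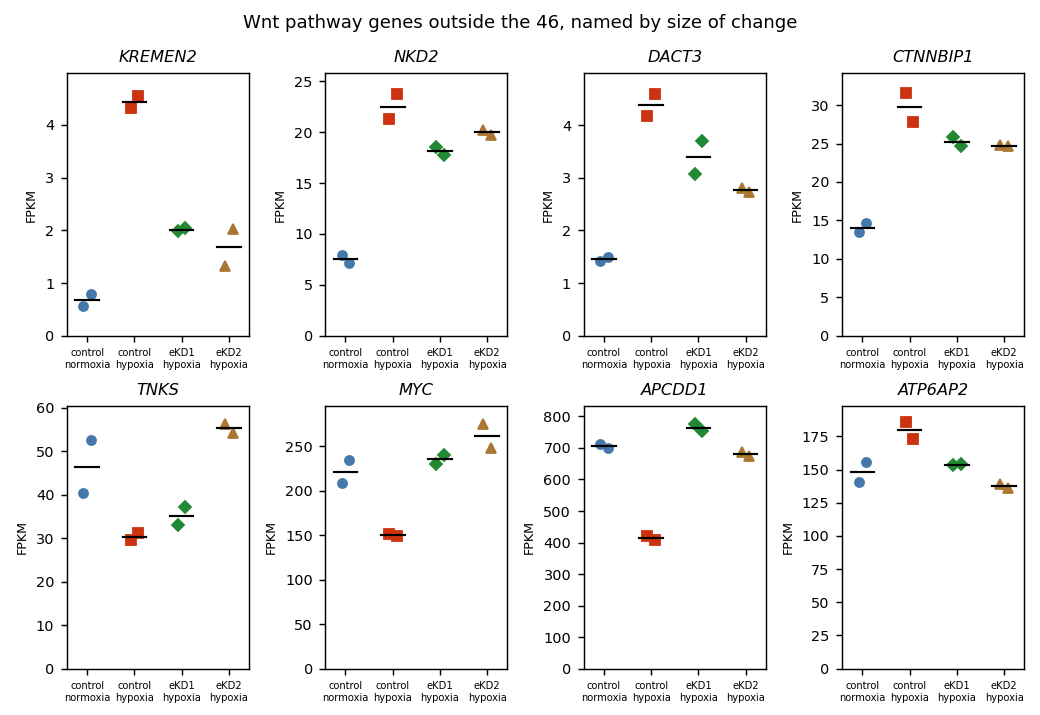
FPKM in each of the 8 libraries is shown for 8 pathway genes outside the 46, the 4 with the largest called changes in hypoxia and the 4 in eKD2, with a bar at each group mean. KREMEN2, NKD2, DACT3 and CTNNBIP1 are lowest in control normoxia, and MYC and APCDD1 are lowest in control hypoxia, at 152 and 149 FPKM and at 421 and 408 FPKM.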

How the data were processed

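RNA was sequenced in duplicate for each of the 4 groups, which were read from the sample titles. The study calls its duplicates biological. Per the study's methods and processing notes, the authors mapped single-end, poly-A selected reads to GRCh37 (hg19) with STAR, and derived FPKM per gene with cufflinks and Cuffnorm. The FPKM table is used as deposited. Whether Cuffnorm rescaled the libraries against each other is not given in the sources used here. The study's own test modelled counts. FPKM are not counts, and limma 3.58.1 in R 4.3.3 was therefore used on log2(FPKM + 1), a scale that shrinks the changes of low genes.

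Genes reaching 1 FPKM in 2 or more of the 8 libraries entered the test, and each comparison was fitted on its own 4 libraries with a variance trend. Two-sided p-values were adjusted by Benjamini-Hochberg over all 15372 genes, with calls at an adjusted p under 0.05. SE is the standard error of the log2 change.

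The 46 genes, the list of other pathway genes and the tests were chosen with earlier results of these data known. Members called in a comparison were given in full. Where under 3 were called, the 5 with the smallest p were given, and the other members by range. Of the other pathway genes, the up to 4 per comparison with the largest change among those called without overlap between groups were named.

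The table has no read totals. Absolute depth is therefore unknown, and single values carry no counting interval. Relative depth was read from the smallest values above 0. Positions came from GENCODE version 44 on GRCh37. Exons of 6 tested members (FZD4, FZD6, DKK3, GSK3B, TCF7 and LEF1) overlap another tested gene. Among the other pathway genes named, so do those of KREMEN2, TNKS, ADGRA2, ID2 and CCND1, and the same limit on reads applies. As alternatives, the pseudocount was set to 0.1, the filter was dropped or replaced by a mean of at least 5 FPKM, libraries were rescaled by median ratios or to equal totals, the spread was estimated over all 8 libraries, a replicate block was added, the variance trend was removed, and each library was omitted in turn. A test of protein-coding genes alone and fits of 7 libraries with a shared spread were added after seeing the data. The fits were tested on simulated data.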

Additional observations from a re-analysis of the deposited data

Results flagged for a closer look

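In 4 of the 39 genes both eKD1 libraries lay on one side of both control hypoxia libraries and both eKD2 libraries on the other, a pattern found in 7.5% of all tested genes. TCF7L1 was at 8.21 and 10.1 FPKM in control hypoxia, lower in eKD1 (7.58 and 8.06) and higher in eKD2 (12.5 and 12.2), and the direct limma test of eKD2 against eKD1 gave a log2 difference of 0.60 (adjusted p = 0.106). FZD5 was at 7.86 FPKM in both control libraries, at 6.77 in both eKD1 libraries and at 8.10 and 8.27 in eKD2 (log2 difference 0.24, adjusted p = 0.317). FZD8 stood above control hypoxia in eKD1 and below it in eKD2 (log2 difference -0.79, adjusted p = 0.114). FZD2 did likewise (32.3 and 31.3 FPKM in eKD1, 29.8 and 30.0 in control hypoxia, 27.3 and 25.7 in eKD2, log2 difference -0.25, adjusted p = 0.187). The direct test did not pass for any of the 4.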

How the results depend on the processing

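The absence of read totals and the 2 libraries per group limit these results, and low genes near 1 FPKM are the least certain. The 42 named changes kept their direction under every alternative run. All 24 that were called lost the call under at least 1 alternative, for each of them the omission of a library from a separate fit, where 1 group is left with a lone sample assumed to vary like the other. The cause of the other shifts was not tested.

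In hypoxia the 8 calls became 3 without a filter (FZD2, FZD7 and FZD8). The fits with a library omitted are described above for each of the 8. The 16 calls among other pathway genes became 8 without a filter, 0 with a library omitted from the separate fits and 10 to 17 in the shared fits of 7 libraries. Without a filter, the share of all genes called also went down, from 32.2% to 11.1%. The median of the members was -0.031 with the filter at a mean of 5 FPKM, -0.11 with equal FPKM totals and 0.011 to 0.17 with a library omitted.

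In eKD1 the members stayed at 0 calls in all settings. Over all genes, limma called 0.759% without a filter, 0.102% with the filter at a mean of 5 FPKM and 0.0781% with median-of-ratios rescaling. It called 0.0846% with equal totals, 4.95% in the shared fit and 1.27% with protein-coding genes alone. The other pathway genes had 2 calls without a filter and 1 each with the mean filter, median-of-ratios rescaling and equal totals. They had 4 in the shared fit and 4 with protein-coding genes alone. In eKD2 the members had 5 calls with the mean filter, 5 with equal totals, 5 in the shared fit and 6 with protein-coding genes alone. Limma called 16.5% of all genes with the mean filter, 12.4% with equal totals, 16.9% in the shared fit and 20.1% with protein-coding genes alone. Without a variance trend it called 0.182%, against 9.61% in the main fit. The median of the members was 0.12 with a pseudocount of 0.1, 0.033 with median-of-ratios rescaling, 0.15 with equal totals and 0.052 to 0.17 with a library omitted. The 5 other genes called became 11 in the shared fit, 9 with protein-coding genes alone and 0 without a variance trend.

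In eKD2 against eKD1 the members had 4 calls in the shared fit and 1 with protein-coding genes alone, and the other genes 6 and 1. Over all genes, 9.05% were called in the shared fit and 4.48% with protein-coding genes alone. The median of the members was 0.047 without a filter, 0.054 with the mean filter and 0.14 to 0.21 with a library omitted. Of the 46 genes, 39 reached 1 FPKM in at least 2 libraries and 30 reached 5 FPKM.

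The replicate numbers do not pair the libraries. Deviations of same-numbered libraries correlated at -0.05 to 0.04 across genes. With a replicate block, the hypoxia comparison called 3 members (FZD7, GSK3B and WNT5A) and 8 other pathway genes. The same fit called 16.7% of all genes. In the 3 eKD comparisons the block left 0 calls among all 15372 genes. The 0 members called there, and the fall from 5 to 0 other genes in eKD2, therefore say nothing about these genes.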

Other observations

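Further genes of the pathway, chosen after their values were seen, moved in hypoxia. Of the 6 tested receptor partners outside the 46, 3 rose and none fell. Over all tested genes 16.2% rose, and the group itself was not tested. PTK7, a pseudokinase of the planar polarity branch, went from 54.8 and 58.6 FPKM in control normoxia to 98.4 and 113 in control hypoxia (log2 change 0.88, adjusted p = 0.0111). RECK, a membrane protein that presents WNT7 ligands together with ADGRA2, went from 2.40 and 2.91 FPKM to 6.33 and 6.49 (log2 change 1.02, adjusted p = 0.0190). ADGRA2 itself went from 65.8 and 66.6 FPKM to 84.7 and 82.6 (log2 change 0.33, adjusted p = 0.0233), and with equal FPKM totals its change was 0.10 (adjusted p = 0.246).

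Of the 4 target genes tested outside the 46, 3 fell in hypoxia and JAG1 was not called. Over all tested genes 16% fell, and the group itself was not tested. Within the 46, limma did not call the target AXIN2 (log2 change -0.19, adjusted p = 0.429). Nor did it call the feedback inhibitors RNF43 (-0.36, adjusted p = 0.281) and ZNRF3 (-0.043, adjusted p = 0.823). MYC is given above. ID2, an inhibitor of helix-loop-helix factors, went from 724 and 735 FPKM to 552 and 573 (log2 change -0.37, adjusted p = 0.0109). CCND1, the cyclin of the G1 phase, went from 667 and 661 FPKM to 566 and 584 (log2 change -0.21, adjusted p = 0.0280). CCND1 stood at 817 and 860 FPKM in eKD1 (log2 difference from control hypoxia 0.54, adjusted p = 0.102) and rose to 719 and 708 FPKM in eKD2 (0.31, adjusted p = 0.0339). With any 1 library omitted, a separate fit leaves 1 group with a lone sample and cannot decide about these genes.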
